A study of Mus musculus with 6 samples.

Results

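Mafa and 4 of its relatives, Maf, Maff, Mafg and Mafk, were followed in RNA sequencing of mouse tongue. These are 5 genes of the 35275 in the deposited table, matched by gene symbol. Mafa was chosen for its lower level in the Aim2 KO libraries, so its difference between the genotypes is given as a description with no test, while the other 4 were taken as family members. The libraries were 3 of tongue from Aim2 KO mice, which lack the cytosolic DNA sensor Aim2, and 3 of tongue from wild type (WT) mice. Mice of both genotypes had drunk water with 4NQO at 100 µg/ml for 20 weeks. The compound, 4-nitroquinoline 1-oxide in full, damages DNA and gives rise to oral squamous lesions in mice. No group without 4NQO is among these libraries, and the labels give no strain, sex or age. Nothing in them ties a library to a single animal, so a p-value here reflects only how far these 6 libraries scatter, which may be technical. The library names share a number within each genotype, and that number differs between the genotypes. What it stands for is not given, so a source shared within a genotype cannot be told apart from the genotype.

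Maf proteins are basic leucine zipper transcription factors. The large ones, such as those encoded by Mafa, Maf and Nrl, carry a domain that activates transcription. The small ones, encoded by Maff, Mafg and Mafk, lack it and work as partners of the CNC proteins, such as NRF2 (gene Nfe2l2), and of the BACH repressors at antioxidant response elements. MAFA is best known in the insulin-producing beta cells of the pancreas, and in mouse skeletal muscle the large Maf proteins drive the fast myosin gene Myh4. MAF acts in lens fibre cells and T helper cells, and in human epidermis it promotes keratinocyte differentiation. The tongue holds skeletal muscle, squamous epithelium and leukocytes, so each of these settings was represented among the lists of genes compared below.

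A stretch of coding sequence that Maf and the 3 small Maf genes have in common is shown first, because it bears on how well reads can be assigned to single members. Each line is the coding strand, 5′ to 3′, over 60 bases, from GENCODE M21 transcripts on GRCm38. Capitals mark the 39 bases that are identical in all 4 genes.
Maf, chr8:115705967-115706026, minus strand: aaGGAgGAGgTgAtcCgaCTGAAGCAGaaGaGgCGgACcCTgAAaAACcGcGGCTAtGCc
Maff, chr15:79357520-79357579, plus strand: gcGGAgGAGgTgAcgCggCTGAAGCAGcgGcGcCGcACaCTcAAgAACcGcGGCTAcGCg
Mafg, chr11:120629578-120629637, minus strand: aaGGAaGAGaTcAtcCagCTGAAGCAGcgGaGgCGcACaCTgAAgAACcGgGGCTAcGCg
Mafk, chr5:139800184-139800243, plus strand: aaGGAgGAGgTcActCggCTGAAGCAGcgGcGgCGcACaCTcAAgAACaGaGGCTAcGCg
In this stretch Mafg shared 47 of 60 bases with Maf, and Maff and Mafk each shared 45. Across the whole coding sequences, the longest unbroken run shared with Maf was 22 bases in Maff, 14 in Mafg and 12 in Mafk. The differing bases are thus spread through even this conserved part. The stretch was placed by likeness to the Mafa coding sequence, which is not shown. How well Mafa reads can be told from those of its relatives is therefore not addressed here.

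The gene models behind the values differ. In the deposited table Mafa (ENSMUSG00000047591) spans 75746843 to 75747922 on the minus strand of chromosome 15, a single stretch of 1080 bases that is the coding sequence with its stop codon and holds no UTR. GENCODE M21 gives the same gene 2739 bases in 1 exon, so reads from the Mafa UTRs were not part of its value. Maf (ENSMUSG00000055435, chromosome 8, 115682942 to 115707794, minus strand), Mafg (ENSMUSG00000051510, chromosome 11, 120625117 to 120633600, minus strand) and Mafk (ENSMUSG00000018143, chromosome 5, 139791513 to 139802653, plus strand) were listed with 6360, 4923 and 3097 bases, UTRs included. Maff (ENSMUSG00000042622, chromosome 15, 79347541 to 79359072, plus strand) was listed with 1933 bases. Mafg overlaps Sirt7 on the same strand over 124 bases, and Mafk overlaps Tmem184a on the opposite strand over 169 bases. Reads in the bases that Mafg and Sirt7 share could belong to either gene, with or without use of strand. Whether the counting used strand is not given in the sources used here, so reads shared by Mafk and Tmem184a could also belong to either gene.

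Library depth was 21959204 to 25369400 reads, recovered from the FPKM values (read counts scaled to gene length and library depth). Markers of tongue tissue were abundant, with Krt13, a keratin of oral epithelium, at 15240 ± 572 FPKM in Aim2 KO and 15570 ± 1348 FPKM in WT (SD, n = 3 each). Acta1, skeletal muscle actin, averaged 3231 ± 972 FPKM in Aim2 KO and 3748 ± 290 FPKM in WT. Aim2 itself was counted with 3, 4 and 10 reads in Aim2 KO libraries 1 to 3, against 14, 25 and 30 reads in WT libraries 1 to 3. Which part of the gene the deletion removes is not given in the labels, so these reads are a limited check of the genotype. Aim2 KO library 1 stood apart in composition. Its mean log2(FPKM + 1) over 12 skeletal muscle genes was 7.10, against 8.09 and 8.04 in the other Aim2 KO libraries and 7.86, 8.20 and 7.97 in WT libraries 1 to 3. Differences were tested by limma on log2(FPKM + 1). The test took in the 12144 genes that averaged 1 FPKM or more across the 6 libraries, and log2 differences are Aim2 KO minus WT on that scale. The test called 1 gene, Wdfy1, at an adjusted p under 0.05 (higher in Aim2 KO, log2 difference 1.55, adjusted p = 0.0341), or 0.00823% of the genes tested. It called 0 lower, with 304 genes at an unadjusted p under 0.05 (2.50%), and voom on the recovered reads called 1 gene higher and 0 lower. No gene was called higher with no filter, with a filter at 0.1 FPKM, after rescaling to TPM, with the replicate block or without any single library other than Aim2 KO 1, so the call of Wdfy1 ended in those settings. All 5 members passed the filter on low values.

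Mafa was lower in all 3 Aim2 KO libraries than in any WT library. It had 9.45, 10.7 and 11.1 FPKM in Aim2 KO libraries 1 to 3, against 13.3, 16.0 and 15.1 FPKM in WT libraries 1 to 3. These values rested on 230, 289 and 263 reads in Aim2 KO, against 354, 420 and 413 reads in WT. The highest Aim2 KO library lay below the lowest WT library, so the groups did not overlap. The means were 10.4 ± 0.858 FPKM in Aim2 KO and 14.8 ± 1.36 FPKM in WT (SD, n = 3 each), a ratio of 0.703. The log2 difference was -0.47 (SE 0.11), below the first percentile of all genes tested, which was -0.46. For genes lower in Aim2 KO, groups that do not overlap occurred in 180 of the 12144 genes (1.48%), and Mafa was picked from that side, so nothing is read from its place there. Without Aim2 KO library 1 the log2 difference was -0.41, and over all 17 alternatives it ran from -0.54 to -0.38. In bulk tissue, fewer cells that express a gene and less RNA per cell cannot be told apart.

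**Figure D1:**
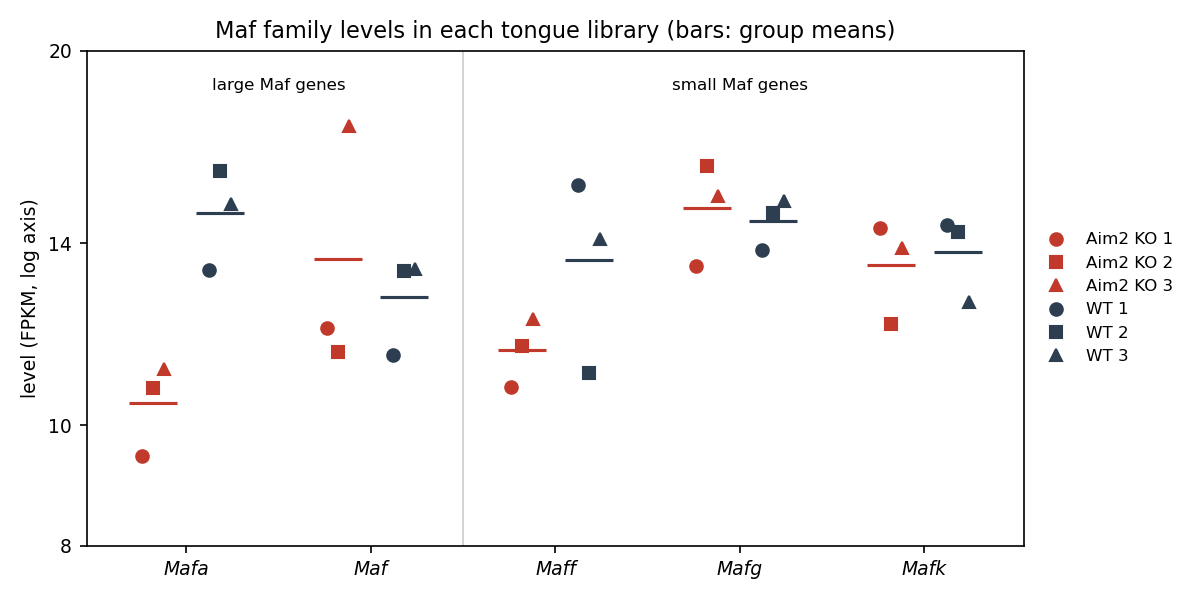
Level of each Maf gene in FPKM (log axis) in the 3 Aim2 KO libraries (red) and the 3 WT libraries (dark), with group means as bars and the library number as the marker shape. Mafa, which was chosen by this contrast, is at 9.45 to 11.1 FPKM in Aim2 KO against 13.3 to 16.0 FPKM in WT. The groups overlap for the other 4 genes, which were not chosen by their values, so nothing is read from that contrast.

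Maf, the large Maf gene of lens fibres and T helper cells, did not pass the test and overlapped between the genotypes. It had 12.0, 11.4 and 17.4 FPKM in Aim2 KO libraries 1 to 3, against 11.4, 13.3 and 13.3 FPKM in WT libraries 1 to 3. One library, Aim2 KO 3, was above all others, and the remaining 5 lay within 11.4 to 13.3 FPKM. The log2 difference was 0.08 (95% interval -0.31 to 0.46, limma adjusted p = 0.9998), and without Aim2 KO library 3 it was -0.10. It was 0.35 with array quality weights, which also did not pass (adjusted p over all alternatives 0.352 to 1).

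Maf stood at 1.27, 1.07 and 1.57 times the FPKM of Mafa in Aim2 KO libraries 1 to 3, against 0.853, 0.830 and 0.885 times in WT libraries 1 to 3. Maf was thus above Mafa in each Aim2 KO library and below it in each WT library, a description that carries the choice of Mafa with it. Nrl, the large Maf gene of rod photoreceptors, had 1 read in Aim2 KO library 3 and 0 in the other 5, where a count of 0 allows up to 3 reads a library.

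The small Maf genes lay close to each other and to Maf. Maff, the small Maf gene that is known to respond to stress and cytokines, had 10.7, 11.6 and 12.2 FPKM in Aim2 KO libraries 1 to 3, against 15.6, 11.0 and 14.1 FPKM in WT libraries 1 to 3. WT library 2 lay within the Aim2 KO range and the other WT libraries lay above it. The log2 difference was -0.21 (95% interval -0.53 to 0.11, limma adjusted p = 0.9998), and it was -0.34 without WT library 2 and -0.11 without WT library 1, neither past the threshold (adjusted p over all alternatives 0.511 to 1).

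Mafg, a partner of NRF2 that is itself known as a target of the antioxidant response, had 13.4, 16.2 and 15.3 FPKM in Aim2 KO libraries 1 to 3, against 13.8, 14.8 and 15.1 FPKM in WT libraries 1 to 3. Mafk, a partner of NRF2 and of BACH1, had 14.4, 12.1 and 13.9 FPKM in Aim2 KO libraries, against 14.5, 14.3 and 12.6 FPKM in WT libraries. Both genes overlapped between the groups. Their log2 differences were 0.03 for Mafg (95% interval -0.22 to 0.28) and -0.03 for Mafk (95% interval -0.29 to 0.22), with a limma adjusted p of 0.9998 for each. The sign for Mafg turned with median-of-ratios scaling (-0.0028) and that for Mafk without Aim2 KO library 2 (0.04), so no direction is given. Together, the 3 small Maf genes summed to 38.6, 39.8 and 41.3 FPKM in Aim2 KO libraries 1 to 3, against 43.9, 40.1 and 41.8 FPKM in WT libraries 1 to 3, and these sums overlapped.

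The 5 members lay within a narrow band of levels. Over all 6 libraries Mafg averaged 14.8 FPKM, Mafk 13.6, Maf 13.1, Mafa 12.6 and Maff 12.5 FPKM, which placed them above 63.2% to 67.6% of the genes tested. The order of these neighbours changed from library to library. Mafa was the lowest of the 5 in each Aim2 KO library and had ranks 4, 1 and 2 in WT libraries 1 to 3. These ranks carry the choice of Mafa by this contrast with them. Since the value of Mafa covers the coding sequence alone, its rank against genes with UTRs also depends on the model.

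Partners of the small Maf proteins were examined next. The test called 1 of the 12144 genes tested (0.00823%), so a list here or below with 0 past the threshold is not read as unchanged. Of 6 CNC and BACH genes 4 passed the filter, and 0 passed the test in either direction. Nfe2l2, which encodes NRF2, was the most abundant, at 161, 130 and 149 FPKM in Aim2 KO libraries 1 to 3, against 134, 120 and 134 FPKM in WT libraries 1 to 3 (log2 difference 0.18, 95% interval -0.12 to 0.47). Nfe2l1, which encodes the proteasome regulator NRF1, averaged 99.6 ± 20.3 FPKM in Aim2 KO and 107 ± 10.7 FPKM in WT (SD, n = 3 each), and its relative Nfe2l3 had 3.49 ± 0.969 and 4.25 ± 0.664 FPKM. The 3 NRF genes overlapped between the groups.

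Bach1, which encodes a repressor that dimerises with small Maf proteins and is released by haem, had 8.82, 8.77 and 10.2 FPKM in Aim2 KO libraries 1 to 3, against 7.26, 7.25 and 7.57 FPKM in WT libraries 1 to 3. All 3 Aim2 KO libraries lay above all 3 WT libraries, as they did for 605 of all genes tested (4.98%). The log2 difference was 0.29 (95% interval 0.06 to 0.53) and did not pass the test (limma adjusted p = 0.9998). Bach2, a regulator of lymphocytes, averaged 0.394 FPKM in Aim2 KO and 0.525 FPKM in WT, and Nfe2, of the blood cell lineage, had at most 5 reads in a library. Of the complex that degrades NRF2, Keap1 averaged 12.5 ± 0.569 FPKM in Aim2 KO and 12.9 ± 0.739 FPKM in WT, and Cul3 and Rbx1 had log2 differences of 0.06 and -0.01, with 0 of the 3 past the threshold.

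**Figure D2:**
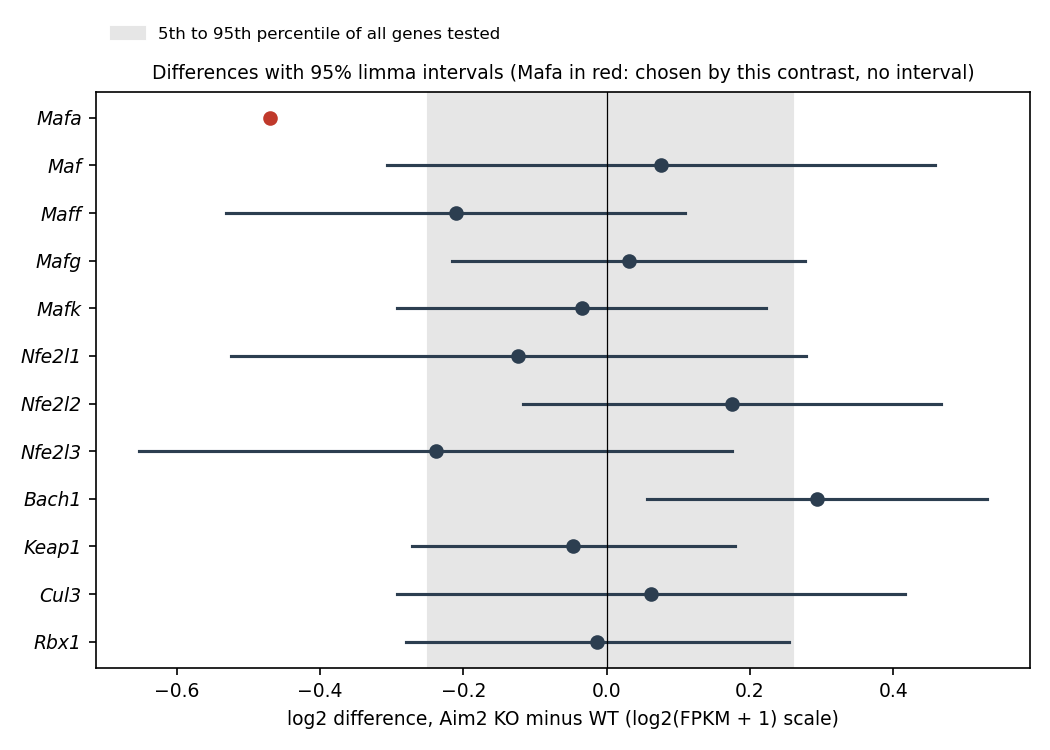
Log2 difference, Aim2 KO minus WT, on the log2(FPKM + 1) scale for the 5 members, the 4 tested CNC and BACH partners and the 3 genes of the KEAP1 complex, with 95% limma intervals (none for Mafa, in red, which was chosen by this contrast). The grey band runs from the 5th to the 95th percentile of the 12144 genes tested (-0.25 to 0.26), with Mafa at -0.47 and Bach1 at 0.29 outside it.

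The genes that CNC and small Maf dimers are known to activate did not pass the test, which called only 0.00823% of all genes tested. Of 16 antioxidant response targets all 16 were tested, 12 were higher and 4 lower in sign, and 0 passed in either direction. Their median log2 difference was 0.16, against 0.02 for all genes tested. It ranged from 0.05 without WT library 2 to 0.32 without Aim2 KO library 3 when single libraries were left out, and was 0.06 without Aim2 KO library 1, 0.09 without Aim2 KO library 2 and 0.31 without WT library 1. With array quality weights it was -0.02. The most abundant included the ferritin heavy chain gene Fth1, at 894 ± 90.8 FPKM in Aim2 KO and 917 ± 37.6 FPKM in WT. The thioredoxin gene Txn1 averaged 416 ± 97.4 FPKM in Aim2 KO and 354 ± 65.8 FPKM in WT, and the peroxiredoxin gene Prdx1 had 352 ± 37.7 and 315 ± 57.5 FPKM (SD, n = 3 each).

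AP-1 genes, whose products can dimerise with several Maf proteins, showed no common direction. Of 11 listed genes 7 were tested, with 3 higher and 4 lower in sign and 0 past the threshold. Their median was -0.15, but 0.01 without Aim2 KO library 3 and 0.03 with no filter, so no direction held. It was -0.07 without Aim2 KO library 2, -0.08 without WT library 2 and -0.34 without Aim2 KO library 1, the library with the highest summed level of these genes (356 FPKM, against 211 to 291 FPKM in the other 5). Junb was the most abundant, at 133 ± 50.6 FPKM in Aim2 KO and 119 ± 27.8 FPKM in WT.

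Genes of skeletal muscle were compared because large Maf proteins act there. All 12 skeletal muscle genes were lower in sign, by a median of -0.28, and 0 passed the test. The median was 0.04 without Aim2 KO library 1, so it rested on that library, and -0.43 without Aim2 KO library 2 and -0.42 without Aim2 KO library 3. Myh4, the fast myosin gene that large Maf proteins drive in mouse muscle, had 383, 1293 and 798 FPKM in Aim2 KO libraries 1 to 3, against 607, 1028 and 1009 FPKM in WT libraries 1 to 3. It overlapped between the groups (log2 difference -0.22, 95% interval -1.23 to 0.79, limma adjusted p = 0.9998). Myh1, the next fast myosin, had 467, 554 and 693 FPKM in Aim2 KO libraries, against 717, 966 and 723 FPKM in WT libraries. The Myh1 groups did not overlap, as for 1.48% of all genes tested in this direction. The log2 difference of Myh1 was -0.49, and -0.36 without Aim2 KO library 1, and the gene did not pass the test (limma adjusted p = 0.9998). Myh2 averaged 16.1 ± 8.61 FPKM in Aim2 KO and 20.3 ± 9.10 FPKM in WT. The 3 fast myosins had a median of -0.38, with 0.14 without Aim2 KO library 1, -0.09 without WT library 2 and -0.64 without Aim2 KO library 3. Of the slow and developmental myosins Myh7, Myh3 and Myh8, 0 reached the filter.

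The level of Mafa was lowest where muscle markers were lowest, in Aim2 KO library 1. The muscle levels of Aim2 KO libraries 2 and 3 lay within the WT range. With the mean level of the skeletal muscle genes added to the fit, the log2 difference of Mafa was -0.41, against -0.47 without it. The part of muscle content in the level of Mafa was not tested. The myogenic regulators, which set muscle identity, were lower in sign in 10 of 10 tested genes (median -0.23), 0 past the threshold, and their median was 0.05 without Aim2 KO library 1, -0.10 without WT library 2 and -0.40 without Aim2 KO library 3.

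**Figure D3:**
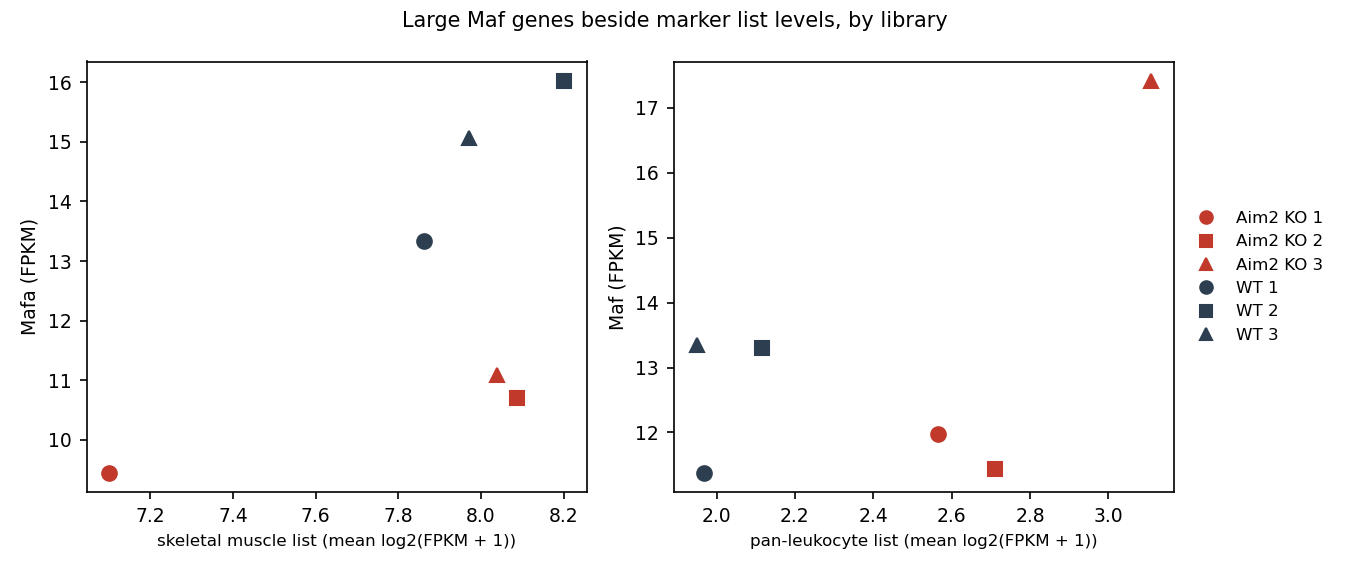
Level of Mafa and Maf in FPKM in each library (Aim2 KO red, WT dark) against the mean log2(FPKM + 1) of a marker list (skeletal muscle for Mafa, pan-leukocyte for Maf). Aim2 KO library 1 has the lowest muscle level (7.10) and the lowest Mafa (9.45 FPKM), and Maf is highest in Aim2 KO library 3, where the leukocyte level is also highest.

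Markers of leukocytes, some of which express Maf, were higher in sign in Aim2 KO. Of 11 pan-leukocyte genes 10 were tested, and all 10 were higher with groups that do not overlap (median 0.73, and 0.57 to 0.87 without single libraries), but 0 passed the threshold. Over all genes tested, 4.98% were higher without overlap. Of the 10, 2 had WT means under 1 FPKM and reached the filter only through the Aim2 KO libraries. Cd52, a surface glycoprotein of lymphocytes and monocytes, averaged 16.5 ± 5.26 FPKM in Aim2 KO and 6.58 ± 0.808 FPKM in WT (limma adjusted p = 0.504). The mean log2 level of the 10 genes was 2.57, 2.71 and 3.11 in Aim2 KO libraries 1 to 3, against 1.97, 2.12 and 1.95 in WT libraries 1 to 3. Maf was highest in Aim2 KO library 3, the library with the highest leukocyte level, and had 11.4 to 13.3 FPKM in the other 5, across leukocyte levels from 1.95 to 2.71. The T cell level was also highest there, at 2.37, against 1.84 and 1.73 in the other Aim2 KO libraries and 1.00 to 1.40 in WT. The part of these cells in the level of Maf was not tested.

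Genes that MAF is known to control were detected in part. Of 7 T cell targets 2 were tested, 0 past the threshold, 1 of them with a WT mean under 1 FPKM. Il4, the interleukin 4 gene, averaged 1.27 ± 0.568 FPKM in Aim2 KO and 1.02 ± 0.295 FPKM in WT. Of 9 lens genes, only the small heat shock gene Cryab, which muscle also expresses, and Hsf4 were tested, and 3 crystallin genes were listed at 0 in all libraries. Of 10 genes of the beta cell programme of MAFA 0 reached the filter and 5, among them Ins1 and Ins2, were listed at 0 in all 6 libraries. The insulin genes were thus not detectable in these tongues although Mafa had at least 230 reads in each library.

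Macrophage genes were higher in sign in 9 of 12 tested (median 0.32, and 0.25 to 0.45 without single libraries), 0 past the threshold. Of the 12, 1 had a WT mean under 1 FPKM and reached the filter only through the Aim2 KO libraries. Lyz2, encoding lysozyme, averaged 49.0 ± 21.4 FPKM in Aim2 KO and 37.0 ± 4.36 FPKM in WT.

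Regulators of epidermal differentiation were examined for the keratinocyte role. Their mean log2 level was 5.71, 5.52 and 5.50 in Aim2 KO libraries 1 to 3, against 5.71, 5.36 and 5.71 in WT libraries 1 to 3. Of 8 such regulators, which include factors downstream of MAF in human epidermis, 3 were higher and 5 lower in sign and 0 passed (median -0.03, and -0.12 to 0.04 without single libraries, so no direction held). Klf4 averaged 182 ± 15.9 FPKM in Aim2 KO and 188 ± 26.3 FPKM in WT, and Grhl3 had 59.3 ± 5.52 and 55.3 ± 11.6 FPKM. Of 16 suprabasal differentiation genes 12 were lower in sign, 0 past the threshold. Their median was -0.09, with -0.03 without WT library 1, -0.23 without WT library 2, -0.19 without Aim2 KO library 1 and -0.15 without Aim2 KO library 2. Of the 4 most abundant, Krt13, Krt4 and Krtdap overlapped between the groups, with log2 differences of -0.03, -0.18 and 0.01. The fourth, Lor, which encodes the cornified envelope protein loricrin, averaged 1967 ± 144 FPKM in Aim2 KO and 2706 ± 159 FPKM in WT (limma adjusted p = 0.9998). Its groups did not overlap, as for 1.48% of all genes tested in this direction.

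**Figure D4:**
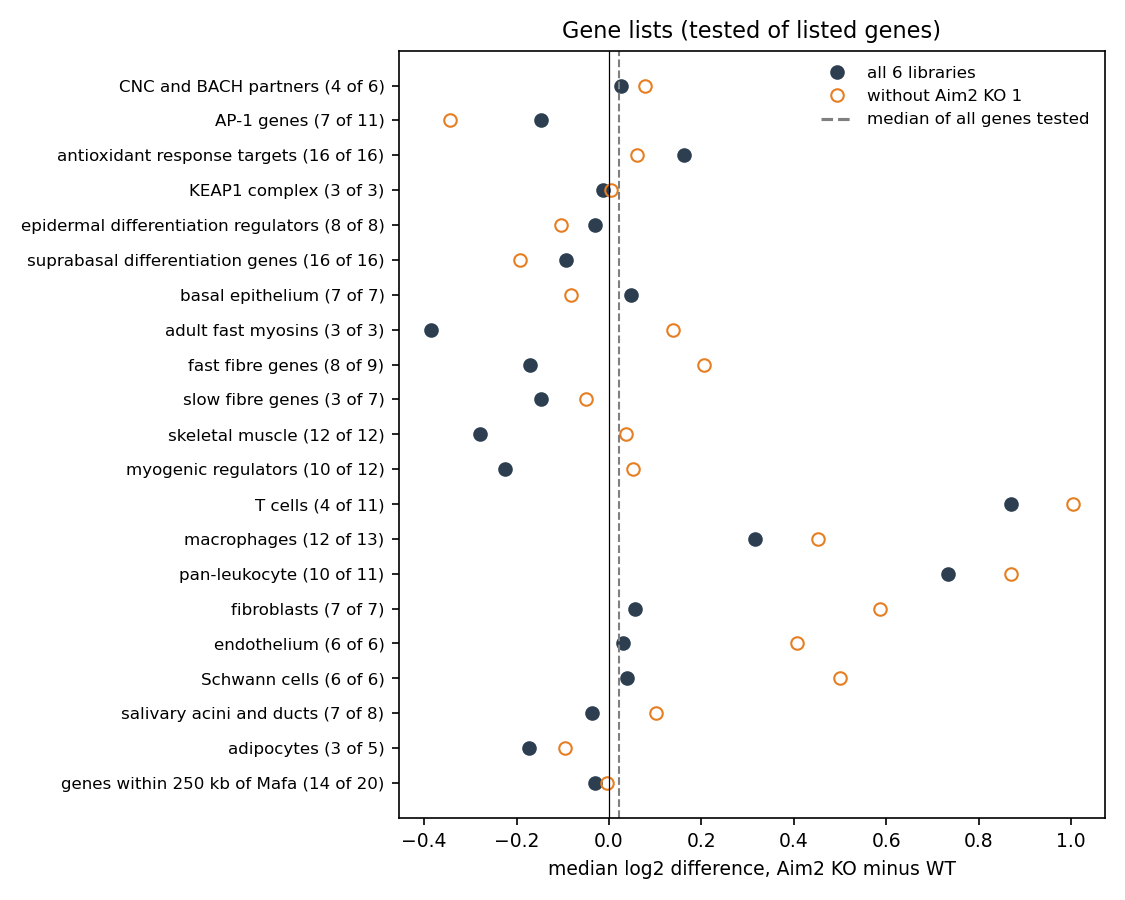
Median log2 difference, Aim2 KO minus WT, for each list with at least 3 tested genes, with all 6 libraries (filled) and without Aim2 KO library 1 (open), and the number of tested of listed genes in brackets. The dashed line is the median of all genes tested (0.02). Pan-leukocyte genes stay at 0.73 and 0.87, while skeletal muscle genes are at -0.28 and 0.04.

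Other lists also had 0 genes past the threshold, in a test that called 0.00823% of all genes tested. The medians of the fibroblast, endothelial and Schwann cell genes were 0.06, 0.03 and 0.04. They were 0.59, 0.41 and 0.50 without Aim2 KO library 1, which had the lowest level of each of these 3 lists, and were -0.27, -0.195 and -0.17 without Aim2 KO library 2, so no direction held. Fast fibre genes had a median of -0.17, and -0.39 to 0.21 without single libraries, and slow fibre genes had -0.15, and -0.32 to -0.05. T cell genes were at 0.87 (4 of 11 tested, 2 of them with WT means under 1 FPKM), but at 0.36 without Aim2 KO library 3, 0.57 without WT library 3, 0.50 over all 11 with no filter and 1.42 with voom. Basal epithelial genes were at 0.05, and -0.08 to 0.14 without single libraries, salivary genes at -0.04, and -0.26 to 0.31, and adipocyte genes at -0.17, and -0.45 to -0.01.

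Genes near Mafa on chromosome 15 lay on both sides of 0. Within 250 kb lie 20 other genes of the table, of which 14 were tested, 7 higher and 7 lower in sign and 0 past the threshold, with a median of -0.03 (-0.08 to -0.0043 without single libraries). Distances are from the start of Mafa to the start of the other gene, negative toward lower coordinates. The tested gene with the nearest start was Rhpn1, at -43.6 kb, with 1.00 ± 0.284 FPKM in Aim2 KO and 1.19 ± 0.0791 FPKM in WT. Zc3h3 starts at 94.0 kb, but its far end lies closer to Mafa than any part of Rhpn1, and its log2 difference was 0.07. Top1mt, a mitochondrial topoisomerase gene at -69.1 kb, had a log2 difference of 0.01. The groups did not overlap for 2 of the 14, 1 higher and 1 lower, against 4.98% higher and 1.48% lower over all genes tested. Gsdmd, which encodes the pore-forming protein gasdermin D and starts at 114.4 kb, had 1.95, 2.57 and 2.90 FPKM in Aim2 KO libraries 1 to 3, against 1.54, 1.88 and 1.35 FPKM in WT libraries 1 to 3. Zfp707, a zinc finger gene at 221.2 kb, had 1.33, 1.70 and 1.53 FPKM in Aim2 KO libraries, against 1.91, 2.46 and 1.96 FPKM in WT libraries. Their limma adjusted p was 0.9998 each.

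**Figure D5:**
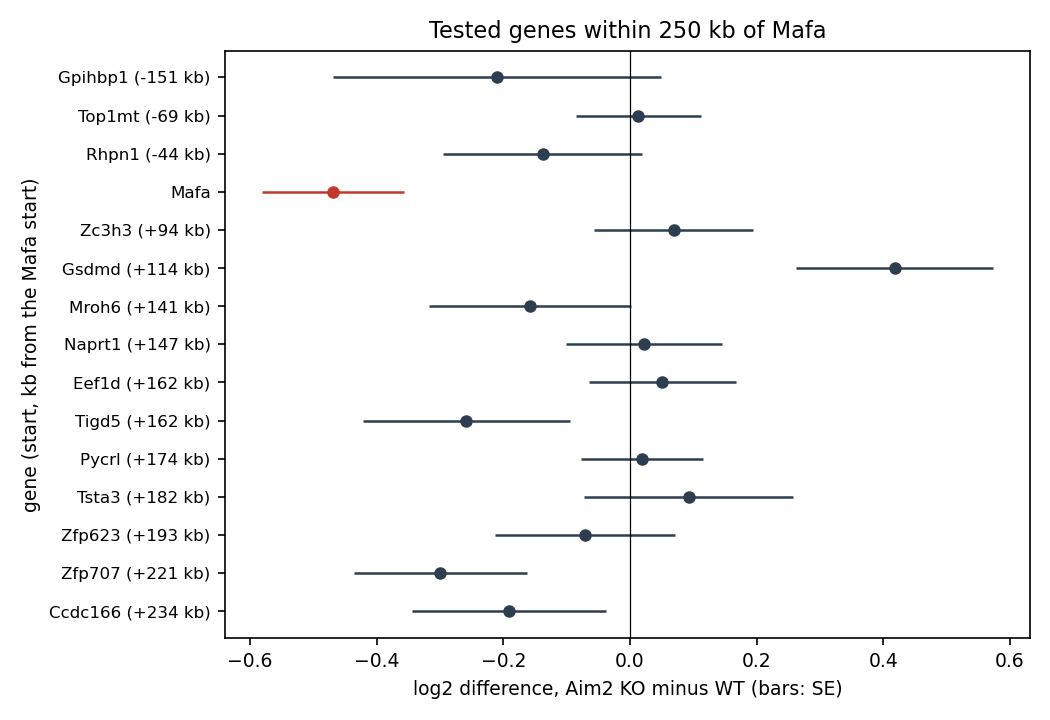
Log2 difference, Aim2 KO minus WT, with its SE, for Mafa (red) and the 14 tested genes within 250 kb of it, ordered along the chromosome with the distance between gene starts in kb. Mafa is at -0.47, Gsdmd at 0.42 and Zfp707 at -0.30, and the other neighbours lie from -0.26 to 0.09.

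Likeness to Mafa across the 6 libraries was ranked by Pearson's r of log2(FPKM + 1) over the genes tested, leaving out clone and predicted names. The highest were Dact2 (r = 0.979), Vgll2 (0.965), Acot6 (0.965), Mbd3 (0.955) and Ppp1r35 (0.955). Such values are a description, since the best of so many genes over 6 libraries are high by selection, and the libraries are shared by all genes. Vgll2, which encodes a transcription cofactor of skeletal muscle, had 4.81, 6.84 and 6.79 FPKM in Aim2 KO libraries 1 to 3, against 7.99, 10.3 and 8.94 FPKM in WT libraries 1 to 3. Mbd3, a subunit of the NuRD chromatin complex, was at 60.5 to 61.3 FPKM in Aim2 KO libraries and 67.9 to 70.7 FPKM in WT libraries. Both separated the groups, as did 1.48% of all genes tested in this direction. They were picked for following Mafa, which was chosen by this contrast, so nothing is read from that separation.

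The genes most like Maf in the same kind of ranking were Serpinh1 (r = 0.997), Tmem184b (0.994), Asap2 (0.981), Snapc4 (0.980) and Rbm5 (0.979). Serpinh1, the collagen chaperone, had 20.9, 20.1 and 29.6 FPKM in Aim2 KO libraries 1 to 3, against 19.8, 22.6 and 22.6 FPKM in WT libraries 1 to 3, so that it shared with Maf the high value in Aim2 KO library 3.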

How the data were processed

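RNA came from tongues, and a sequencing company built the libraries, as the labels' protocols state. FPKM for 35275 genes, 1 column per library, is what the authors deposited. Aligner, counter, build and annotation: not given in the sources used here. Coordinates are printed as deposited, and those of the 5 members lie within or at the GENCODE M21 (GRCm38) models.

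Each FPKM value times gene length gave a whole number of reads (within 0.01 read for 100.0% of values above 0), which gave depths of 21959204 to 25369400 reads. These counts limit low genes. Genotypes were compared on log2(FPKM + 1), two-sided, by limma 3.58.1 under R 4.3.3, with the variance following intensity and genotype as the only term, over the 12144 genes averaging 1 FPKM or more, with Benjamini-Hochberg adjustment over all of them and a threshold of 0.05. It was tested on simulated data. Log2 differences understate the change of low genes. Intervals of differences are 95% intervals of that fit.

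The members, the 25 lists (206 of 207 entries matched) and the tests were chosen with earlier results of these data known. Named were the family, its partners, the KEAP1 complex, the myosins, the genes within 250 kb of Mafa, up to 4 most abundant genes of any other list, and the 5 genes most like Mafa and Maf. Some items are not reported here. Wdfy1, Sirt7, Tmem184a, Ins1, Ins2, Fos and Fosl1 were named outside this rule or after their values were seen. Alternatives were 2 pseudocounts, 2 filters, 2 scalings, limma without a trend, array quality weights, voom on recovered reads, a replicate block, a muscle covariate and leaving out each library.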

Additional observations from a re-analysis of the deposited data

How the results depend on the processing

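The log2 difference of Mafa ran from -0.54 to -0.38 over 17 alternatives. Mafa was chosen by this contrast in the same libraries, so that range is a description and does not test it. The filters, the fit without a trend and the replicate block cannot change a difference of group means, and each left it at -0.47. Maf, Maff, Mafg and Mafk passed the threshold under none of the 17 alternatives. The sign of Maf turned without Aim2 KO library 3 (range without single libraries -0.10 to 0.18), that of Mafg with median-of-ratios scaling (-0.0028) and without Aim2 KO library 2 or WT library 1 (range -0.0241 to 0.102), and that of Mafk without Aim2 KO library 2 (range -0.0949 to 0.0359). The cause was not tested. The number of genes called higher, 1 with all libraries, was 0 with no filter, with a filter at 0.1 FPKM, after rescaling to TPM and with the replicate block (limma, 807, 566, 353 and 462 genes at an unadjusted p under 0.05). It was 65 with array quality weights, 22 with the muscle covariate and 0 to 12 when single libraries were left out, where 12 came without Aim2 KO library 1 and 0 without any other library (222 to 428 genes at an unadjusted p under 0.05). The number called lower was 3, 2 and 0 to 2 in the same settings, with 2 without Aim2 KO library 1. Whether the replicate numbers pair the libraries cannot be decided from 3 libraries a group, where deviations from group means are tied to each other. Same-numbered libraries correlated in these deviations by 0.351, 0.458 and 0.0302 for numbers 1, 2 and 3. Aim2 KO libraries 1 and 2 correlated best with the WT library of the same number, while Aim2 KO library 3 correlated best with WT library 2. With the replicate block the call of Wdfy1 was lost, and no other call changed. Of the 391 list medians recomputed, 18 moved by more than the spread between libraries. With 3 libraries a group, differences of the size of the intervals given for Maf and Maff were not detectable. Larger ones could also be missed, since Cd52 had a log2 difference of 1.17 and was not called. Genes with a few reads, such as Nfe2 and Nrl, could not be compared.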

Other observations

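Among the 7 tested AP-1 genes, 2 had an unadjusted limma p under 0.05, as did 2.50% of all genes tested. These 2 are not among the 4 most abundant and were chosen after their values were seen. Fos, an immediate early gene, had 8.33, 6.07 and 5.66 FPKM in Aim2 KO libraries 1 to 3, against 8.53, 12.3 and 7.91 FPKM in WT libraries 1 to 3. Fosl1, whose product FRA-1 is induced in squamous epithelium under stress, had 16.3, 7.45 and 9.28 FPKM in Aim2 KO libraries, against 7.55, 5.33 and 6.49 FPKM in WT libraries. Both overlapped between the groups, and the limma adjusted p was 0.9998 for each.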
